A study of Mus musculus with 6 samples.

Results

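The genes described here encode the actin cytoskeleton and the machinery that moves a macrophage: the actins themselves, the factors that start, extend, cut and bundle actin filaments, the myosin motors, the proteins that tie filaments to integrins and to the plasma membrane, and the small GTPases that switch them on and off. The list of 56 gene symbols was drawn up by known role, with no measured value in the rule, though earlier results of these data were known. All 56 were found among the 28822 gene identifiers of the table. A symbol, Myl12b, stood on 2 rows, so that 57 rows carried a member's name, and the second of these is described with the myosins. RNA was sequenced from 6 mouse samples labelled BMDM + HT22. The title names the macrophages as bone marrow-derived, while the design text also allows the microglial line BV2, and they were collected from the upper side of a Transwell, a porous insert that soluble factors can cross. Below them in every sample lay HT22 cells, a mouse hippocampal neuronal line, after 2 h of oxygen-glucose deprivation, a culture model of ischaemia. In 3 samples the co-culture was given BW723C86, an agonist of the serotonin receptor 5-HT2B, and in 3 the solvent DMSO. The DMSO group thus shares the deprived neurons, and no group without them was compared here. The sources used here do not give the strain, the dose, the time of treatment or the number of animals or cultures. The p-values therefore measure only how far these samples spread, and that spread may be technical.

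Macrophages crawl by pushing the membrane forward with branched actin networks. WASP and WAVE proteins activate the Arp2/3 complex, which starts a new filament on the side of an existing filament, while formins and Ena/VASP proteins lengthen unbranched filaments. Profilin and thymosins hold actin monomers, cofilin and gelsolin cut filaments, and myosin II pulls on them. Macrophages attach through podosomes and adhesions in which talin, vinculin and zyxin connect integrins to actin.

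Levels are given as CPM, TMM-scaled counts relative to the size of the library, in the order of replicates 1, 2 and 3. Library totals ran from 58841307 to 75931615 counts, and the lowest count of any member in any library was 1705. All 56 members passed the filter on low counts and were tested. Macrophage markers were abundant in all 6 libraries, with Csf1r at 735 to 1100.0 CPM and Adgre1 at 373 to 709 CPM, but Cx3cr1 was at most 0.556 CPM, and 6 microglial markers summed to 224 to 226 CPM with DMSO and 249.6 to 254.5 CPM with BW723C86. The neuronal markers Map2 and Nefl had no count, and the summed neuronal markers, nearly all of them Syn1, came to 7.06 to 8.46 CPM with DMSO and 18.8 to 20.2 CPM with BW723C86. Markers of fibroblasts and smooth muscle summed to at most 6.88 CPM in a library, with Lum and Myh11 at 0. For 49 of the 56 members the coefficient of variation was larger with BW723C86 (median 4.6%) than with DMSO (median 1.67%). BW723C86 replicate 2 was the lowest of its group for 31 members, the highest for 20 and in between for 5.

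With BW723C86, actin genes changed in both directions, in equal number. Of the 56 members, 19 were higher, 19 were lower and 18 did not pass the test (edgeR's quasi-likelihood test, Benjamini-Hochberg adjusted p under 0.05 over 15567 genes). That is 67.9% of the members, beside 42.0% of all genes tested, and beside 61.0% of the 4328 tested genes with a mean over the 6 libraries at or above that of Vcl (41.2 CPM), the lowest among the members, so that the share of changed members was near that of other well expressed genes. Without BW723C86 replicate 2, 46 members passed, 21 higher and 25 lower, the 8 added being Arpc2, Cyfip1, Msn, Myl6, Pfn1, Rhoa, Tpm3 and Tpm4. The median log2 fold change was 0.01 for the members and 0.00 for all genes tested. Most changes were small: 8 members passed with a fold of at least 0.5 on the log2 scale, against 18.5% of all genes and 15.5% of those at or above the level of Vcl. The largest rises were those of the adhesion genes Zyx and Vcl, all 5 unconventional myosins rose, and the largest falls were those of Coro1a, Gsn and Tmsb4x. The libraries of the 2 groups did not overlap for 42 members, against 52.3% of all genes tested and 68.7% of those at or above the level of Vcl.

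**Figure D1:**
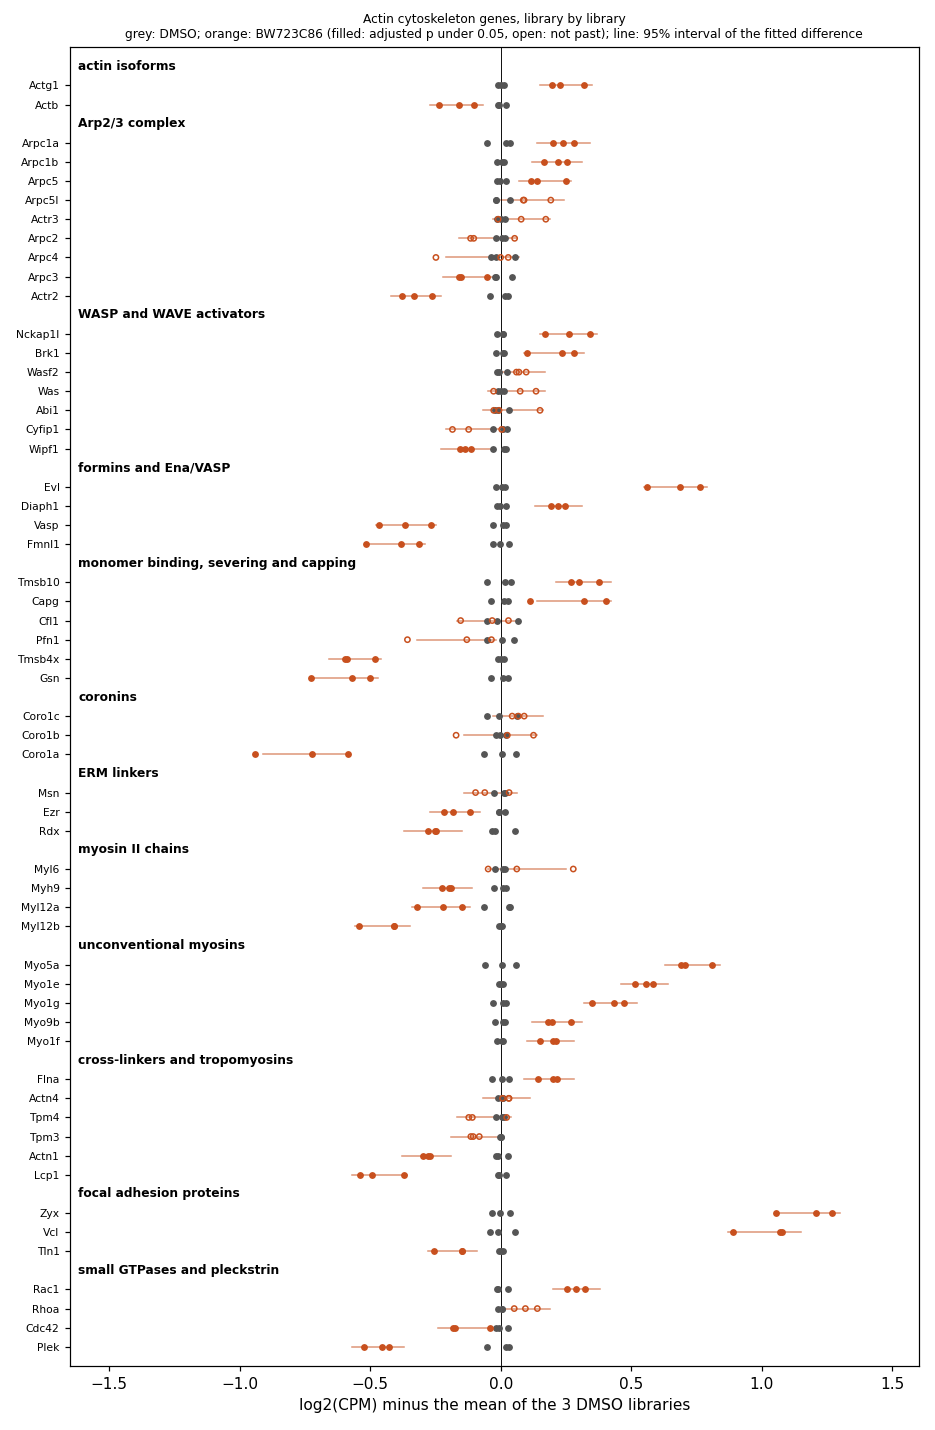
Each row is 1 of the 56 genes, grouped by role. The horizontal axis is log2(CPM) minus the mean of the 3 DMSO libraries, grey points are DMSO libraries, orange points are BW723C86 libraries (filled where the adjusted p was under 0.05, open where it was not), and lines are 95% intervals of the fitted difference. Most members lie within 0.5 of 0, Zyx and Vcl stand farthest to the right and Coro1a farthest to the left.

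In sum the 56 genes took up 3.07% of the scaled library with DMSO and 2.95% with BW723C86. The summed level was 30643, 30883 and 30616 CPM with DMSO and 30046, 29004 and 29483 CPM with BW723C86, a difference of -3.92%. All 3 BW723C86 libraries thus lay below all 3 DMSO libraries, by less than many single members moved. Tmsb4x, Actb, Actg1 and Lcp1 together gave 30.4% of the sum. Per kilobase of annotated exon, which allows levels of different genes to be compared, Tmsb4x led with 2365 CPM per kilobase in DMSO, followed by Actb at 1478, Actg1 at 1087, Pfn1 at 814 and Capg at 520.4. These were the 5 highest in both groups. Vcl was last of the 56 in both, at 5.19 CPM per kilobase with DMSO and 10.5 with BW723C86, and Zyx moved from rank 32 to rank 16.

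The cytoplasmic actins moved in opposite directions. Actb (ENSMUSG00000029580), which encodes beta-actin, the form enriched at the moving edge of cells, was at 2813, 2879.6 and 2823 CPM with DMSO and 2640.1, 2407 and 2539 CPM with BW723C86 (log2 fold change -0.17, SE 0.05, adjusted p = 0.011). Actg1 (ENSMUSG00000062825), encoding gamma-actin, was at 2104, 2141 and 2122 CPM with DMSO and 2649, 2429 and 2485 CPM with BW723C86 (log2 fold change 0.25, SE 0.05, adjusted p = 0.00076). The groups did not overlap for either gene, Actb being low and Actg1 high in all 3 BW723C86 libraries. The summed level of both was 4961 ± 53.9 CPM with DMSO and 5049.7 ± 228 CPM with BW723C86 (SD, n = 3), so that their total differed by less than the spread of the treated libraries. The call on Actb ended when DMSO replicate 2 was left out. The coding sequences of the 2 genes are nearly alike and both have processed copies elsewhere in the genome, so the way shared reads were assigned makes their separate values uncertain.

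The promoter of Actg1 is shown here with those of Vcl, Myo1e and Zyx, members that rose, because actin and adhesion genes are known targets of SRF, a transcription factor that responds to the pool of free actin and binds the CArG box. Each window runs 5′ to 3′ from 250 bases before to 50 bases after the RefSeq start site (GRCm38.p6) and capitals mark a CArG box (searched by its consensus, which reads alike on both strands, and no other motif was searched).
Actg1 (chr11:120348446-120348745, minus strand): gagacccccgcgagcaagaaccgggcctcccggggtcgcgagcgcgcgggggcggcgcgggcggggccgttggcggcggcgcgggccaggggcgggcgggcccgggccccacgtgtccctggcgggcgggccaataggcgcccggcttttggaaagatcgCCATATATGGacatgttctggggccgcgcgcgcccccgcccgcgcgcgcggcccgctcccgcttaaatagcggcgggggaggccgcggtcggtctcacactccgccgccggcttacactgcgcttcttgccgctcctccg
Vcl (chr14:20929148-20929447, plus strand): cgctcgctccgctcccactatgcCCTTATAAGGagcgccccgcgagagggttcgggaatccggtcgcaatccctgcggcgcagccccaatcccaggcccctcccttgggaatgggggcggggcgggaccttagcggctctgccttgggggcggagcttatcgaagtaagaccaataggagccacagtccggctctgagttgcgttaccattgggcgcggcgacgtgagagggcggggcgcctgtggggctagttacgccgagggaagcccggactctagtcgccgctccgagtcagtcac
Myo1e (chr9:70207100-70207399, plus strand): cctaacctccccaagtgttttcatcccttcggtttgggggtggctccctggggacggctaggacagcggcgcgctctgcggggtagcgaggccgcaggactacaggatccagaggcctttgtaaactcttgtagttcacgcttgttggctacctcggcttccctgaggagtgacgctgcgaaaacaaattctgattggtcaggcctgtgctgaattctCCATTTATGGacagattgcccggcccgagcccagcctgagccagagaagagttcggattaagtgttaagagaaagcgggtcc
Zyx (chr6:42349578-42349877, plus strand): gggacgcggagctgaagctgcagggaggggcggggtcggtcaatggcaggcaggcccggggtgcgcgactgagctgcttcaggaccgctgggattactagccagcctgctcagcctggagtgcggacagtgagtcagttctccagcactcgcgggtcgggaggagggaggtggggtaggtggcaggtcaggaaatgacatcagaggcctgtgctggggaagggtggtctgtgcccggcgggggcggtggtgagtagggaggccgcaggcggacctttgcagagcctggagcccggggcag

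The box began 90 bases before the start in Actg1, 227 bases before it in Vcl and 32 bases before it in Myo1e, and the window of Zyx held none. Of the 49 members with a window in the RefSeq table, 5 had the box (10.2%), beside 488 of 27025 genes in the table (1.81%). The other members with a box were Myl6 and Arpc4, and neither passed the test. Most members that rose and had a window held no box, Myo5a, Evl and Capg among them. Actb, Arpc5l, Coro1b, Cyfip1, Diaph1, Nckap1l and Rac1 had no window, so that Actb, which fell, was not searched. A match describes letters only, and Zyx, which rose most, had none in this window. Srf itself did not pass the test.

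Of the 6 genes for monomer binding, severing and capping, 2 were higher, 2 were lower and 2 did not pass, and their summed level was 16.7% lower. Tmsb4x (ENSMUSG00000049775), encoding thymosin beta-4, the main actin-sequestering peptide of white blood cells and the member of highest level per kilobase, was at 3242, 3266 and 3217 CPM with DMSO and 2140.3, 2320.1 and 2153 CPM with BW723C86 (log2 fold change -0.56, SE 0.05, adjusted p = 6.7e-07). All 3 BW723C86 libraries lay far below the DMSO libraries. Tmsb10, encoding the related thymosin beta-10, went the other way, from 205 ± 6.81 to 255 ± 9.84 CPM (SD, n = 3; adjusted p = 0.00013). Gsn (ENSMUSG00000026879), encoding gelsolin, which cuts filaments and caps their growing ends when calcium rises, was at 637, 645 and 618 CPM with DMSO and 448, 382 and 426 CPM with BW723C86 (log2 fold change -0.60, SE 0.06, adjusted p = 2.2e-06). Capg, encoding a gelsolin relative of macrophages that caps without cutting, was at 890.3, 898 and 858 CPM with DMSO and 1166, 953 and 1099 CPM with BW723C86 (log2 fold change 0.28, SE 0.06, adjusted p = 0.0032). Both capping genes were without overlap between groups, Gsn low and Capg high with BW723C86. Cfl1, encoding cofilin, was at 978, 1061 and 1002 CPM with DMSO and 1034, 910.4 and 990.0 CPM with BW723C86 and did not pass (log2 fold change -0.05, 95% interval -0.17 to 0.07, adjusted p = 0.48). Pfn1, encoding profilin, was at 836, 864 and 804 CPM with DMSO and 814, 651 and 762 CPM with BW723C86 and did not pass either (95% interval -0.32 to -0.02, adjusted p = 0.069), with BW723C86 replicate 2 as the lowest library. Pfn1 passed without BW723C86 replicate 1 or 2, with library totals in place of TMM, with DESeq2 and with no filter.

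Of the 3 coronins, which help to take Arp2/3 branches apart, 1 passed the test. Coro1a (ENSMUSG00000030707), encoding the form of blood cells, was at 745, 772 and 710.5 CPM with DMSO and 494, 386 and 449 CPM with BW723C86 (log2 fold change -0.75, SE 0.08, adjusted p = 7.7e-06), the largest fall among the members. The 3 BW723C86 libraries differed among themselves, with replicate 2 lowest, but all lay well below the DMSO libraries. Coro1b and Coro1c, the more widely expressed forms, had log2 fold changes of 0.00 (95% interval -0.14 to 0.14) and 0.07 (95% interval -0.03 to 0.16). Neither passed the test.

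**Figure D2:**
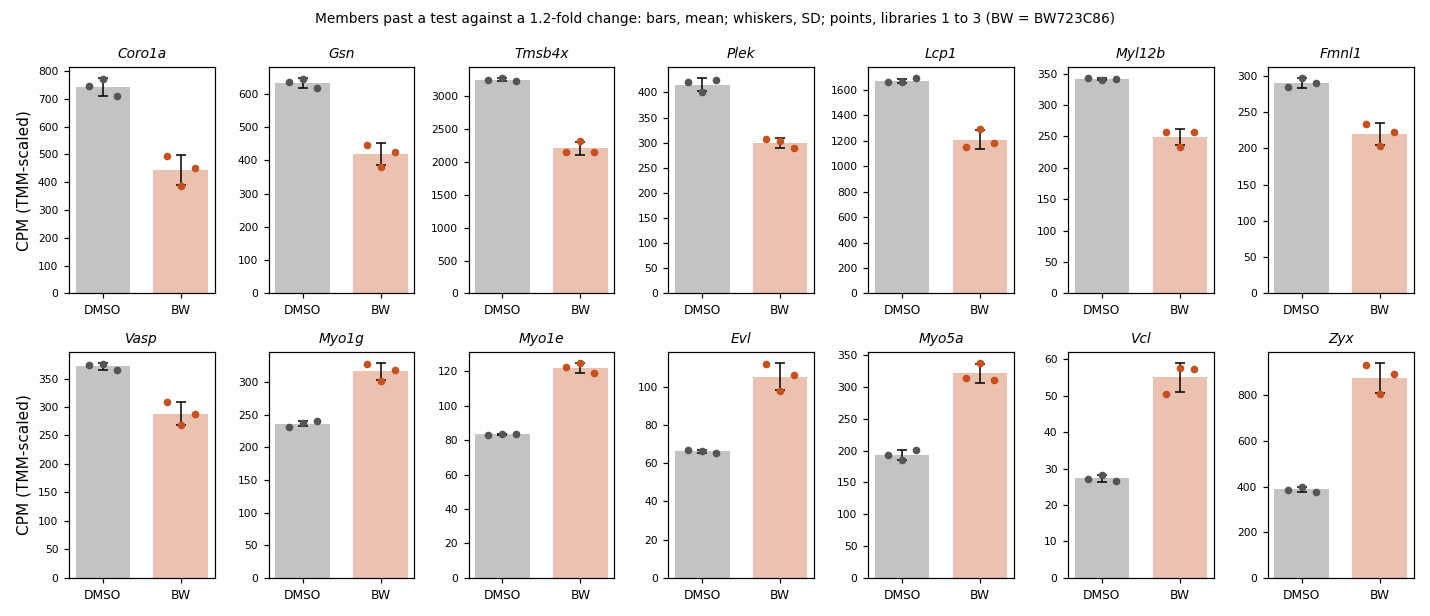
CPM of the 14 members that passed a test against a 1.2-fold change in place of no change. Bars are means of 3 libraries, whiskers are SD and points are libraries. Of these, 8 are lower and 6 are higher with BW723C86 (BW), and no panel shows overlap between groups.

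The genes of the Arp2/3 complex moved in both directions. Of its 9 genes, 3 were higher, 2 were lower and 4 did not pass, with a median log2 fold change of 0.08. Actr2 (ENSMUSG00000020152), encoding the actin-related subunit Arp2, was at 373, 358 and 376 CPM with DMSO and 293, 307 and 284 CPM with BW723C86 (log2 fold change -0.33, SE 0.05, adjusted p = 8.4e-05). Its partner Actr3, encoding Arp3, stood at 429.6, 424 and 434 CPM with DMSO and 426, 484 and 453 CPM with BW723C86, which missed the threshold (adjusted p = 0.22). The groups were apart for Actr2 and overlapped for Actr3, which passed without BW723C86 replicate 1. Arpc1a and Arpc1b, alternative forms of the p40 subunit, rose by 0.24 and 0.21 on the log2 scale (adjusted p = 0.0011 and 0.0014). Arpc1b was at 834, 829.9 and 818 CPM with DMSO and 962, 928 and 986 CPM with BW723C86. Arpc5 rose from 424 ± 5.31 to 477 ± 23.7 CPM (adjusted p = 0.011), while its alternative Arpc5l went from 44.8 ± 0.944 to 48.7 ± 2.05 CPM. The libraries of Arpc5l did not overlap, yet it missed the threshold (adjusted p = 0.097). The call on Arpc5 ended without DMSO replicate 1 or 2 and with library totals in place of TMM. Arpc3 was at 276, 264 and 264 CPM with DMSO and 241, 258 and 239.6 CPM with BW723C86 and lay close to the threshold (adjusted p = 0.048), and its call ended under the replicate block, with upper-quartile scaling, with no robust fit, with no filter and when any library but BW723C86 replicate 2 was left out. Arpc2 and Arpc4 had log2 fold changes of -0.05 and -0.07 and did not pass.

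The proteins that switch on Arp2/3 showed small changes. Of 7 genes, 2 were higher, 1 was lower and 4 did not pass. Nckap1l (ENSMUSG00000022488), encoding HEM1, the scaffold of the WAVE complex in blood cells, was at 427, 434 and 434 CPM with DMSO and 486, 547 and 518 CPM with BW723C86 (log2 fold change 0.26, SE 0.05, adjusted p = 0.00087). Brk1, encoding its smallest subunit, rose from 144 ± 1.75 to 166 ± 10.6 CPM (adjusted p = 0.0057). The remaining WAVE genes Wasf2, Cyfip1 and Abi1 had log2 fold changes of 0.08, -0.10 and 0.04 and did not pass, so that 2 of the complex's 5 genes on the list passed. Was, encoding the Wiskott-Aldrich syndrome protein that builds podosome cores, was at 86.2, 85.7 and 86.9 CPM with DMSO and 94.7, 84.6 and 90.8 CPM with BW723C86 (95% interval -0.05 to 0.17, adjusted p = 0.37). Wipf1, encoding the protein that stabilises it, was at 142, 146 and 147 CPM with DMSO and 130.4, 134 and 132 CPM with BW723C86 (log2 fold change -0.14, SE 0.04, adjusted p = 0.021), a call that ended under the replicate block, without BW723C86 replicate 3 and without DMSO replicate 2 or 3.

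All 4 genes for factors of filament elongation passed, 2 in each direction, beside 61.0% of genes at or above the level of Vcl, and a group of 4 is too small to read against that share. Evl (ENSMUSG00000021262), an Ena/VASP family gene, was at 66.9, 66.4 and 65.3 CPM with DMSO and 112, 97.7 and 106 CPM with BW723C86 (log2 fold change 0.67, SE 0.05, adjusted p = 5.6e-07). Its relative Vasp was at 374, 376 and 364 CPM with DMSO and 308, 269 and 288 CPM with BW723C86 (log2 fold change -0.37, SE 0.05, adjusted p = 9.2e-05). The libraries did not overlap for either, and the family members thus went opposite ways. Fmnl1, encoding a formin of white blood cells, was at 284, 296 and 289.6 CPM with DMSO and 234, 203 and 222 CPM with BW723C86 (log2 fold change -0.40, SE 0.05, adjusted p = 5.1e-05). Diaph1, encoding the formin mDia1 that RhoA activates, was at 361, 353 and 355 CPM with DMSO and 406, 422 and 414 CPM with BW723C86 (log2 fold change 0.22, SE 0.04, adjusted p = 0.0009). Of the formin genes, Fmnl1 was thus lower and Diaph1 higher with BW723C86.

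Among cross-linkers and tropomyosins, Lcp1 changed most. Lcp1 (ENSMUSG00000021998), encoding L-plastin, which bundles filaments in white blood cells, was at 1660.2, 1659 and 1692 CPM with DMSO and 1150.2, 1293 and 1186 CPM with BW723C86 (log2 fold change -0.47, SE 0.05, adjusted p = 7.4e-06). Flna, encoding filamin A, which joins crossing filaments into a gel, rose from 919, 946 and 962 CPM to 1083, 1041 and 1093 CPM (adjusted p = 0.0038). Actn1, encoding alpha-actinin-1, fell from 142 ± 2.44 to 117 ± 1.22 CPM (adjusted p = 0.00013), while Actn4, encoding alpha-actinin-4, was at 244, 242 and 246 CPM with DMSO and 249, 249 and 245 CPM with BW723C86 (95% interval -0.07 to 0.11). The tropomyosin genes Tpm3 and Tpm4, whose products coat filaments, had log2 fold changes of -0.10 and -0.07 and did not pass (adjusted p = 0.061 and 0.29). The libraries of Tpm3 did not overlap, and it passed with library totals in place of TMM, with DESeq2, with limma-voom and without BW723C86 replicate 1 or 2.

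The ERM genes encode ezrin, radixin and moesin, which link filaments to the plasma membrane. Moesin is the main form in white blood cells, and per kilobase Msn was highest, at 364 CPM per kilobase with DMSO beside 77.2 for Ezr and 15.7 for Rdx. Msn was at 1413, 1371 and 1409.9 CPM with DMSO and 1307, 1429 and 1339 CPM with BW723C86 and did not pass (log2 fold change -0.04, 95% interval -0.14 to 0.06). Ezr was at 243, 243 and 247 CPM with DMSO and 209.8, 225 and 215 CPM with BW723C86 (log2 fold change -0.17, SE 0.04, adjusted p = 0.0063). Rdx was at 75.8, 71.9 and 71.3 CPM with DMSO and 60.1, 61.2 and 61.5 CPM with BW723C86 (log2 fold change -0.26, SE 0.05, adjusted p = 0.00088). Ezr and Rdx were thus lower in all 3 BW723C86 libraries than in any DMSO library.

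Conventional and unconventional myosins differed in direction. Of the 4 genes for chains of myosin II, the contractile motor, 3 were lower and 1 did not pass. Myh9 (ENSMUSG00000022443), encoding the heavy chain of non-muscle myosin IIA, was at 1105, 1079 and 1116 CPM with DMSO and 963, 941 and 959 CPM with BW723C86 (log2 fold change -0.20, SE 0.04, adjusted p = 0.0015). The regulatory light chain genes Myl12a and Myl12b fell from 271 ± 10.1 to 231 ± 13.8 CPM (adjusted p = 0.0031) and from 341 ± 1.41 to 249 ± 13.3 CPM (adjusted p = 6e-06). Myl6, encoding the essential light chain, was at 399.5, 398 and 390.0 CPM with DMSO and 479.5, 382 and 413 CPM with BW723C86 and did not pass (95% interval -0.05 to 0.25, adjusted p = 0.26), with its 3 treated libraries spread widely. The neighbouring genes Myl12a and Myl12b share exons with a second row named Myl12b (ENSMUSG00000117098), whose counts were 1736, 0 and 0 with DMSO and 1416, 2058 and 1473 with BW723C86 (adjusted p = 0.5). The second row thus had no count in 2 DMSO libraries, and its part in the fall of Myl12a and Myl12b was not tested.

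All 5 unconventional myosin genes rose, with a median log2 fold change of 0.42. Beside them, 21.3% of all genes tested and 1432 of the 4328 at or above the level of Vcl were called higher. A group of 5 is too small to read against those shares. Myo5a (ENSMUSG00000034593), encoding myosin Va, a motor that carries organelles along actin, was at 194, 185 and 201 CPM with DMSO and 314, 338 and 312 CPM with BW723C86 (log2 fold change 0.73, SE 0.05, adjusted p = 9e-08). Myo1e, encoding a long-tailed class I myosin of phagocytic cups and podosomes, was at 83, 83.8 and 83.5 CPM with DMSO and 123, 125 and 119 CPM with BW723C86 (log2 fold change 0.55, SE 0.04, adjusted p = 4.3e-07). Myo1g, encoding a short-tailed class I myosin of blood cells, was at 232, 238 and 239.8 CPM with DMSO and 328, 302 and 319 CPM with BW723C86 (log2 fold change 0.42, SE 0.05, adjusted p = 8.5e-06). For each of them every BW723C86 library lay above every DMSO library. Myo1f, encoding the other long-tailed class I myosin, rose from 441 ± 3.68 to 502 ± 11.5 CPM (adjusted p = 0.0027). Myo9b, encoding a myosin with a RhoGAP domain, rose from 235 ± 3.51 to 272 ± 8.9 CPM (adjusted p = 0.0015). The 5 genes summed to 1176.3, 1188 and 1203 CPM with DMSO and to 1555, 1523 and 1526 CPM with BW723C86, 29.1% higher, whereas the 4 myosin II genes summed to 11.8% less.

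Of the 3 adhesion genes, Zyx and Vcl gave the largest changes among the 56 members, and Tln1 changed little. Zyx (ENSMUSG00000029860), encoding zyxin, a LIM protein that brings Ena/VASP proteins to adhesions under tension, was at 386, 397 and 378 CPM with DMSO and 933, 804 and 893 CPM with BW723C86 (2.27-fold, log2 fold change 1.18, SE 0.06, adjusted p = 2.4e-09). Vcl (ENSMUSG00000021823), encoding vinculin, which clamps talin to actin, was at 27.1, 28.3 and 26.5 CPM with DMSO and 50.5, 57.5 and 57.3 CPM with BW723C86 (2.02-fold, log2 fold change 1.01, SE 0.07, adjusted p = 5.5e-08). For both genes every BW723C86 library lay well above every DMSO library. Tln1, encoding talin-1, the integrin activator to which vinculin binds, went the other way, at 735, 727 and 732 CPM with DMSO and 659, 613 and 659 CPM with BW723C86 (log2 fold change -0.18, SE 0.04, adjusted p = 0.0049). Only Zyx and Vcl, of the 56, passed with a change of at least 1 on the log2 scale, against 8.45% of all genes tested and 4.18% of those at or above the level of Vcl. Exons of Vcl overlap those of Ap3m1 on the opposite strand by up to 2090 bases in the annotation, and the sources used here do not say if reads were counted by strand. Ap3m1 was at 114 ± 1.49 and 106 ± 8.77 CPM, which missed the threshold (adjusted p = 0.14).

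Of the small GTPases, Rac1 (ENSMUSG00000001847), which drives lamellipodia through WAVE, was at 359.9, 369 and 359 CPM with DMSO and 432, 454 and 443 CPM with BW723C86 (log2 fold change 0.29, SE 0.04, adjusted p = 0.00011). Its exons overlap those of Daglb on the opposite strand by up to 2309 bases, and Daglb rose from 25.5 ± 2.6 to 96.7 ± 7.28 CPM (adjusted p = 5.9e-10), a gain of similar size in CPM to that of Rac1. If strand was not used in counting, the values of the 2 genes cannot be told apart. Rhoa, which drives contraction, stood at 511, 506 and 510.5 CPM with DMSO and 561, 527 and 543 CPM with BW723C86. Its libraries did not overlap, yet it missed the threshold (adjusted p = 0.093). Cdc42, which drives filopodia and cell polarity, was at 657, 662 and 679 CPM with DMSO and 586, 647 and 590.1 CPM with BW723C86 (log2 fold change -0.13, SE 0.05, adjusted p = 0.043), a call that ended under the replicate block, with upper-quartile scaling and when any library but BW723C86 replicate 2 was left out. Plek (ENSMUSG00000020120), encoding pleckstrin, a protein kinase C substrate of platelets and white blood cells, was at 422, 401 and 424 CPM with DMSO and 308, 303 and 289 CPM with BW723C86 (log2 fold change -0.47, SE 0.05, adjusted p = 2.9e-06). The summed platelet and megakaryocyte markers, given with the other markers and mostly Pf4, were lower in the same libraries. Gp9, Gp1bb and Tubb1 of that list were at most 0.381 CPM in any library.

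The balance within pairs of related members is a measure in which the scaling of libraries cancels. In all, 12 pairs were compared as ratios of counts. The ratio of Actb to Actg1 was 1.34, 1.34 and 1.33 with DMSO and 0.996, 0.991 and 1.02 with BW723C86, so that Actb held the greater share in every DMSO library and about an equal share after treatment. The ratio of Vasp to Evl was 5.59, 5.67 and 5.58 with DMSO and 2.75, 2.75 and 2.71 with BW723C86, the largest shift (-1.04 on the log2 scale). The ratio of Capg to Gsn was 1.4, 1.39 and 1.39 with DMSO and 2.6, 2.5 and 2.58 with BW723C86, and that of Tmsb4x to Tmsb10 was 15.6, 15.5 and 16.3 with DMSO and 8.05, 9.4 and 8.53 with BW723C86. In each of these pairs the groups were apart. Coro1a to Coro1c went from 2.14 ± 0.0181 to 1.22 ± 0.14 and Actn1 to Actn4 from 0.583 ± 0.0147 to 0.472 ± 0.00858. Libraries did not overlap for 9 of the 12 pairs. Each of the 9 gave p = 0.1 in a two-sided exact permutation test (0.133 adjusted over the 12). That is as low as 3 against 3 can go. The share without overlap among pairs of other genes was not computed. Among single genes at or above the level of Vcl it was 68.7%. The ratios of Arpc1b to Arpc1a, Arpc5 to Arpc5l and Tpm3 to Tpm4 overlapped between groups, with mean ratios of 9.73 and 9.55, of 9.48 and 9.81, and of 2.4 and 2.35.

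**Figure D3:**
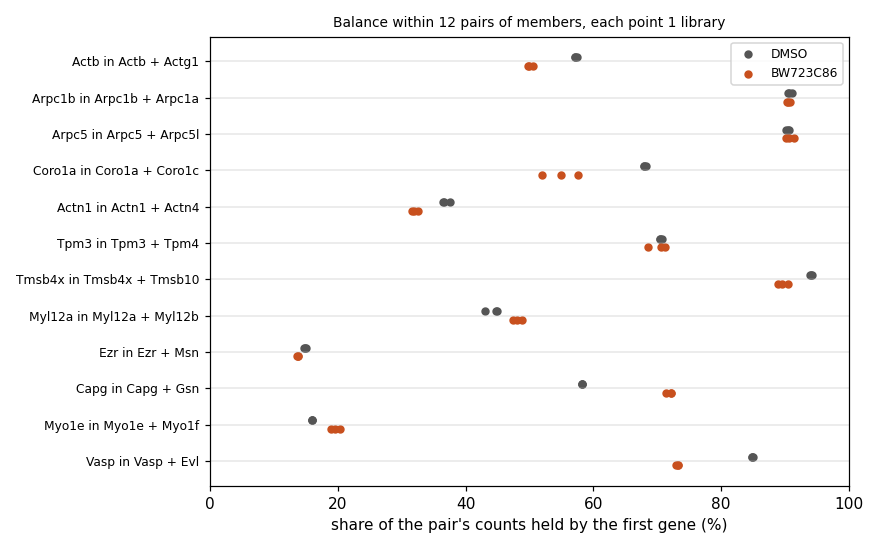
Share of the pair's counts held by the first gene (horizontal axis, %), for 12 pairs of members, with 1 point per library (grey DMSO, orange BW723C86). The groups are apart for 9 pairs and overlap for Arpc1b, Arpc5 and Tpm3.

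Related genes outside the list also changed in both directions. Of 190 other genes of the actin system on 7 lists, some on more than 1, 169 could be tested, and 43 were higher, 56 lower and 70 not past (58.6% changed, beside 42.0% of all genes tested and 61.0% of those at or above the level of Vcl, median log2 fold change -0.02). With library totals in place of TMM the split was 33 higher and 67 lower, and over all genes it went from 3319 higher and 3215 lower to 2581 and 4124. Of 25 podosome and adhesion genes, 7 rose and 7 fell. Tns1 (ENSMUSG00000055322), encoding tensin-1, which binds integrin tails and actin, was at 86.5, 83.9 and 80.9 CPM with DMSO and 353, 342 and 354 CPM with BW723C86 (log2 fold change 2.06, SE 0.05, adjusted p = 1.9e-12). Tns3, encoding tensin-3, rose from 69.9 ± 1.51 to 139 ± 8.36 CPM (adjusted p = 6.8e-09). Tln2, encoding the second talin, rose from 3.25 ± 0.483 to 11.3 ± 0.893 CPM (adjusted p = 2.3e-07), whereas Nedd9, encoding an adhesion scaffold, fell from 87.7 ± 0.672 to 57.6 ± 3.13 CPM (adjusted p = 9.4e-07). The tensins and Tln2 thus changed in the direction of Zyx and Vcl, and Tln1 and Nedd9 did not.

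Of 29 other genes for severing, capping and monomer binding, 7 rose and 12 fell. Avil (ENSMUSG00000025432), encoding advillin of the gelsolin family, was at 44.8, 39.9 and 42.4 CPM with DMSO and 2.97, 3.34 and 3.12 CPM with BW723C86 (log2 fold change -3.75, SE 0.09, adjusted p = 2.3e-12). Gmfg, encoding a debranching factor of blood cells, fell from 65 ± 0.989 to 32.8 ± 2.59 CPM (adjusted p = 5e-08) and Ssh2, encoding a cofilin phosphatase, from 81.4 ± 3.13 to 41.7 ± 4.02 CPM (adjusted p = 1.5e-07). Eps8, encoding a capping and bundling protein, rose from 104 ± 0.968 to 156 ± 8.11 CPM (adjusted p = 7.6e-07). Gelsolin-family members were therefore lower (Gsn, Avil) and higher (Capg) in the same libraries.

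Of 30 other nucleation regulators, 8 rose and 6 fell. Enah, the third Ena/VASP gene, fell from 74.1 ± 1.53 to 35.6 ± 3.42 CPM (adjusted p = 4.9e-08), like Vasp and unlike Evl. Cttn, encoding cortactin, which stabilises branches, rose from 3.79 ± 0.473 to 10.9 ± 1.17 CPM (adjusted p = 1.1e-06). The formin gene Fmnl2 fell from 35.5 ± 1.72 to 23 ± 1.7 CPM (adjusted p = 1.2e-05), and Cyfip2, of the WAVE complex, rose from 80.4 ± 1.93 to 99.2 ± 2.15 CPM (adjusted p = 0.00013). Other myosins and their regulators gave 4 higher and 4 lower of 16. Myo18a, encoding another unconventional myosin, rose from 58.4 ± 0.419 to 75.4 ± 5.67 CPM (adjusted p = 0.00023). Rock1, encoding the kinase that activates myosin II, fell from 64.2 ± 4.75 to 45 ± 5.27 CPM (adjusted p = 0.00025) and Ppp1cb, encoding the catalytic subunit of myosin phosphatase, from 114 ± 2.61 to 86.5 ± 9.88 CPM (adjusted p = 0.0004).

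Other cross-linkers and bundlers gave 5 higher and 13 lower of 28. Marcksl1, encoding a membrane-bound actin regulator, fell from 54.8 ± 2.84 to 17.6 ± 0.777 CPM (adjusted p = 4.8e-10), and Epb41l2, encoding a protein 4.1 relative, from 86.8 ± 3.59 to 58.2 ± 4.14 CPM (adjusted p = 5.5e-06). Fscn1, encoding fascin, which bundles filaments in filopodia and is abundant in mature dendritic cells, rose from 7.27 ± 0.876 to 19.8 ± 2.46 CPM (adjusted p = 4.4e-07). Of 36 other small GTPases, exchange factors and effectors, 11 rose and 13 fell. Rhob rose from 109 ± 1.21 to 172 ± 6.29 CPM (adjusted p = 8.5e-08), the exchange factor gene Vav2 from 36.1 ± 0.764 to 61.3 ± 2.36 CPM (adjusted p = 1.5e-07) and Arhgap25, encoding a Rac GAP of phagocytes, from 63.9 ± 2.21 to 113 ± 1.77 CPM (adjusted p = 1.5e-08). Fgd4, encoding a Cdc42 exchange factor, fell from 42.7 ± 2.41 to 19.3 ± 2.45 CPM (adjusted p = 2.5e-07). Of the exchange factors named, Vav2 was thus higher and Fgd4 lower.

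Of 17 genes of the SRF axis and muscle-type actins only 8 were expressed enough to test, and 1 rose and 2 fell. Srf did not pass (40.5 ± 1.21 and 44.3 ± 3.9 CPM, adjusted p = 0.16, a gene named outside the rule for named genes). Mrtfa, encoding its actin-sensing coactivator, rose from 68 ± 1.73 to 81 ± 4.22 CPM (adjusted p = 0.0017), and Filip1l fell from 43.5 ± 0.812 to 27.9 ± 0.978 CPM (adjusted p = 1.4e-06). Outside actin, 7 of 17 tubulin and intermediate filament genes rose and 4 fell. Vim, encoding vimentin, the intermediate filament of macrophages, rose from 2403 ± 20.6 to 3636 ± 33.6 CPM (adjusted p = 1.1e-07), and the tubulin genes Tubb2a and Tubb2b rose from 23.6 ± 0.793 to 51.7 ± 2.58 CPM (adjusted p = 1e-08) and from 5.8 ± 0.059 to 13 ± 0.607 CPM (adjusted p = 6.2e-07).

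**Figure D4:**
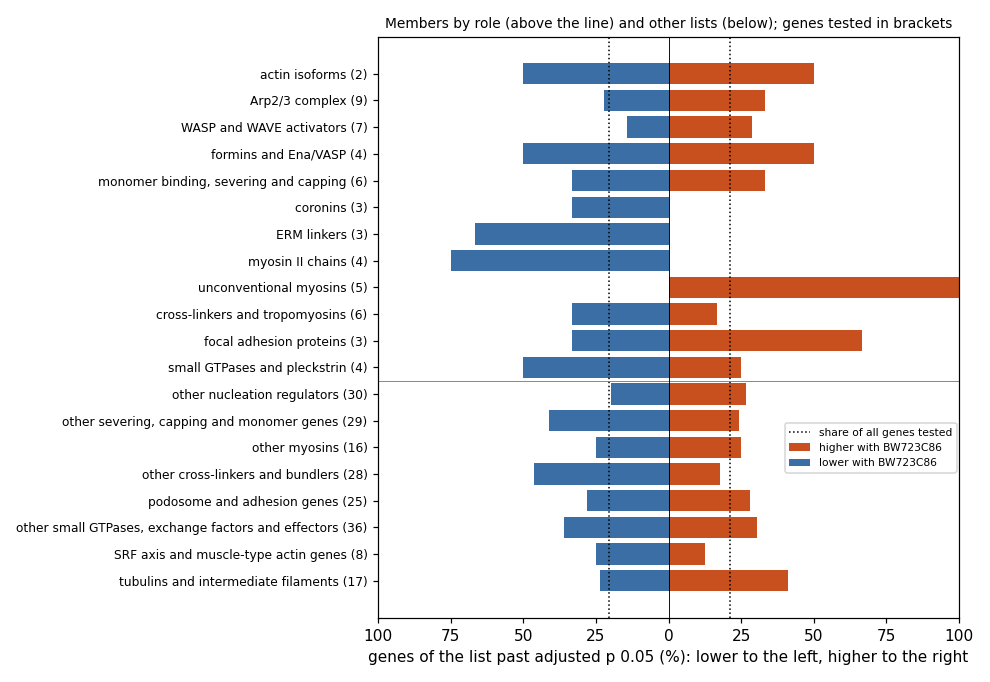
Share of the tested genes of each list that passed at an adjusted p of 0.05, lower with BW723C86 to the left and higher to the right (%), with the number tested in brackets. Dotted lines are the shares over all genes tested (21.3% higher and 20.7% lower), and the unconventional myosins are the list with every gene higher.

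Markers of other blood cells moved with the groups: all 8 tested neutrophil markers, 7 of 8 monocyte markers and all 3 tested platelet markers were lower, and 5 of 7 tested dendritic cell markers were higher, beside 20.7% of all genes tested lower and 21.3% higher. Summed neutrophil markers (11 genes) ran from 2601 to 2676 CPM with DMSO and from 709 to 814 CPM with BW723C86, monocyte markers (8 genes) from 3857 to 3911 and from 1245 to 1361 CPM, and platelet and megakaryocyte markers (6 genes) from 159.9 to 169.8 and from 20.3 to 25.3 CPM. Dendritic cell markers (8 genes, Itgax and Fscn1 among them) ran from 514 to 526 CPM with DMSO and from 2357.5 to 2515 CPM with BW723C86, nearly all of it Itgax, which macrophages also express. Most of the neutrophil sum was Mmp8, most of the monocyte sum Chil3 and most of the platelet sum Pf4. Camp, Mpo, Retnlg and Elane of the neutrophil list were at most 0.861 CPM in any library. The rest of that list, Mmp8 aside, had highest values of 7.82 (Cxcr2) to 75.3 CPM (Ngp). Macrophage markers (12 genes) ran from 38156 to 39031 and from 33591 to 34746 CPM, most of it Lyz2, and 4 were higher, 5 lower and 3 not past, with Itgam and Adgre1 lower and Csf1r, Mertk and Mrc1 higher. Of the members that blood cells of many kinds express, Coro1a, Lcp1, Fmnl1, Tmsb4x and Plek fell beside the neutrophil, monocyte and platelet sums. Nckap1l and Myo1g, of blood cells too, rose (log2 fold changes 0.26 and 0.42), and Was and Msn did not pass. The part of neutrophils, monocytes and platelets in these values was not tested. In bulk RNA, fewer cells of a type and less RNA of a gene per cell cannot be told apart.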

How the data were processed

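RNA from 3 DMSO and 3 BW723C86 samples was poly(A)-selected and sequenced as paired-end, strand-marked libraries, per the labels' protocols. The submitters' processing notes name fastp, HISAT2, StringTie and edgeR and the builds GRCm39 and GRCh38, without role, order or version. The sources used here do not say if reads were counted by strand. The authors deposited a table with an estimated count per Ensembl gene and sample, not normalized as judged from its column totals. All values were whole numbers, so rounding changed none. Values of 4 (4613) outnumbered values of 3 (2904) and of 5 (2552), so low counts move in steps, and a fit on counts divided by 4 was run beside the main fit.

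Symbols and exon lengths came from GENCODE M21 and promoters from RefSeq (GRCm38.p6). No gene coordinates of the deposited build were used. Where Myl12b had 2 rows, the row ENSMUSG00000034868 was taken. Counts were filtered with filterByExpr, scaled by TMM and tested with edgeR 4.0.16 (robust quasi-likelihood fit, limma 3.58.1, R 4.3.3), all 6 samples in a fit of treatment alone, with Benjamini-Hochberg adjustment over the 15567 genes tested. Fold changes are BW723C86 against DMSO. Intervals are 95% intervals of that fit, not adjusted for the number of genes. The test was checked on simulated data with 200 changed genes, far fewer than were called here, so the check does not cover so many changes. The alternatives tried were a change of scaling, DESeq2 1.42.0, limma-voom, no robust fit, a test against 1.2-fold, other filters, divided counts, a replicate block and leaving out each sample.

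Any of the 56 members could be named. Full values were due for members past the threshold with a change of at least 0.5 on the log2 scale and, in each role, for the member of highest level and for those that did not pass with the widest interval. Of each related list, up to 4 genes past the threshold with the smallest p and a mean of at least 5 CPM were named. Some of these genes are not reported here. The members and lists were chosen with earlier results of these data known.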

Additional observations from a re-analysis of the deposited data

How the results depend on the processing

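Of the 38 members called, 33 kept their call and direction in 17 settings (scalings, tools, filters, divided counts, the replicate block and each sample left out), and the exceptions were Actb, Arpc3, Arpc5, Wipf1 and Cdc42. The test against a 1.2-fold change called 6 members higher and 8 lower, 20 and 25 of the other actin genes, and 1609 and 1599 of all genes. With library totals in place of TMM, the median of all genes moved from 0.00 to -0.07 on the log2 scale, the median of the members from 0.01 to -0.06, and their summed level to 31509 CPM with DMSO and 28764 CPM with BW723C86, where TMM gave 30714 and 29511 CPM. That scaling called 18 members higher and 23 lower, and 38.5% of the genes it called were higher, beside 50.8% with TMM. Leaving out each sample in turn gave 18 to 21 members higher and 15 to 25 lower, with a median of -0.01 to 0.01, 36 to 46 and 48 to 66 of the other actin genes, and 2715 to 3440 and 2623 to 3713 of all genes. Members that did not pass changed sign: with library totals, Was (-0.01), Abi1 (-0.03), Coro1c (-0.01) and Actn4 (-0.05), with 1 sample left out, Abi1 (-0.03 to 0.07, negative without BW723C86 replicate 2) and Coro1b (-0.07 to 0.06, positive without BW723C86 replicate 2 or DMSO replicate 2), and with upper-quartile scaling, the stricter filter or divided counts, Coro1b (0.00 each). The cause was not tested.

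Same-numbered samples did not deviate together (correlations of 0.031, -0.0247 and -0.00481). The sources used here do not say whether they share an animal, culture or day. Deviations taken within groups of 3 cannot decide it. The fit with the replicate block called 19 members higher and 16 lower, 42 and 55 of the other actin genes, and 3123 and 3056 of all genes. With 3 samples a group, an exact test of a pair's ratio cannot go below p = 0.1.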
